A study of Homo sapiens with 2 samples.

Results

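Cadherins are membrane proteins that hold neighbouring cells together through calcium-dependent contacts of their extracellular domains. Classical cadherins bind catenins inside the cell, which link the contact to actin. Fibroblasts typically carry N-cadherin (CDH2) and OB-cadherin (CDH11), whereas E-cadherin (CDH1) is the defining cadherin of epithelium. Protocadherins are related receptors best known from neurons. The genes of the beta cluster lie side by side on chromosome 5, each with a promoter of its own, and a cell typically uses a subset of them.

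The genes examined were those whose RefSeq symbol is CDH, PCDH or PCDHB followed by a number alone, 50 genes among which 48 had a spot on the array that could be named through its RefSeq accession, out of 21743 genes named in this way. PCDH10 and PCDHB3 matched no spot and were not analysed here. The other 48 genes were measured in MRC-5 cells, human fibroblasts from fetal lung, transfected with control siRNA or with periostin siRNA (10 nM, 48 h). Concentration and time are not stated separately for the control siRNA. Each group was 1 culture on 1 single-colour Agilent array, so there was no replicate, no test and no p-value, and every difference below is between 2 cultures. The error given with a log2 ratio is the one Feature Extraction propagates for a spot and does not cover the difference between cultures.

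Signals are background-subtracted spot intensities scaled so that both arrays share their 75th percentile, and a ratio is always periostin siRNA over control siRNA. A spot is well above background when Feature Extraction flags it so. Of the 58717 spots, 58.0% were flagged in this way with control siRNA and 58.9% with periostin siRNA, and none was saturated. POSTN, the targeted gene, gave a signal of 2638 on the control siRNA array and of 279.8 on the periostin siRNA array, a log2 ratio of -3.24 ± 0.20 (propagated spot error). All 10 fibroblast markers, among them VIM and COL1A1, were well above background on both arrays, with signals from 745 to 189263 and from 718 to 174022. Signals of different genes come from different probes and are not compared with each other.

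Of the 48 genes with a spot, 27 were well above background on both arrays, 3 with periostin siRNA alone and 18 on neither array. The signals of these 18 genes, for which no ratio is given, lay between 1.67 and 7.94 with control siRNA and between 1.77 and 7.04 with periostin siRNA. Between the cultures, CDH2 and CDH6 were lower by more than 3-fold with periostin siRNA, and PCDHB8, PCDHB9, PCDHB16, CDH7 and CDH10 were higher by more than 3-fold. A ratio could be given for 30 of these genes, so 2 of 30 were lower and 5 of 30 higher, beside 2.75% lower and 3.37% higher among the 16052 genes of the array with a ratio. CDH7 and CDH10 were well above background with periostin siRNA alone, so that they could only be higher. They are counted at a bound of the processed signal, set by the lowest flagged signal of the control siRNA array. That bound is not strict, since some brighter spots were not flagged. By more than 2-fold, 3 of 30 were lower and 8 of 30 higher, beside 6.42% and 7.97% of all genes. The median log2 ratio of the 27 genes that both arrays measured well above background was -0.07, with 14 below 0 and 13 above 0. That of all 14957 such genes was 0.05, with 6833 below 0 and 8124 above 0. The family thus had no common direction, and its values spread from -2.85 to 2.30. RNA was taken from whole cultures, in which fewer cells of a kind and less RNA per cell cannot be told apart.

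**Figure D1:**
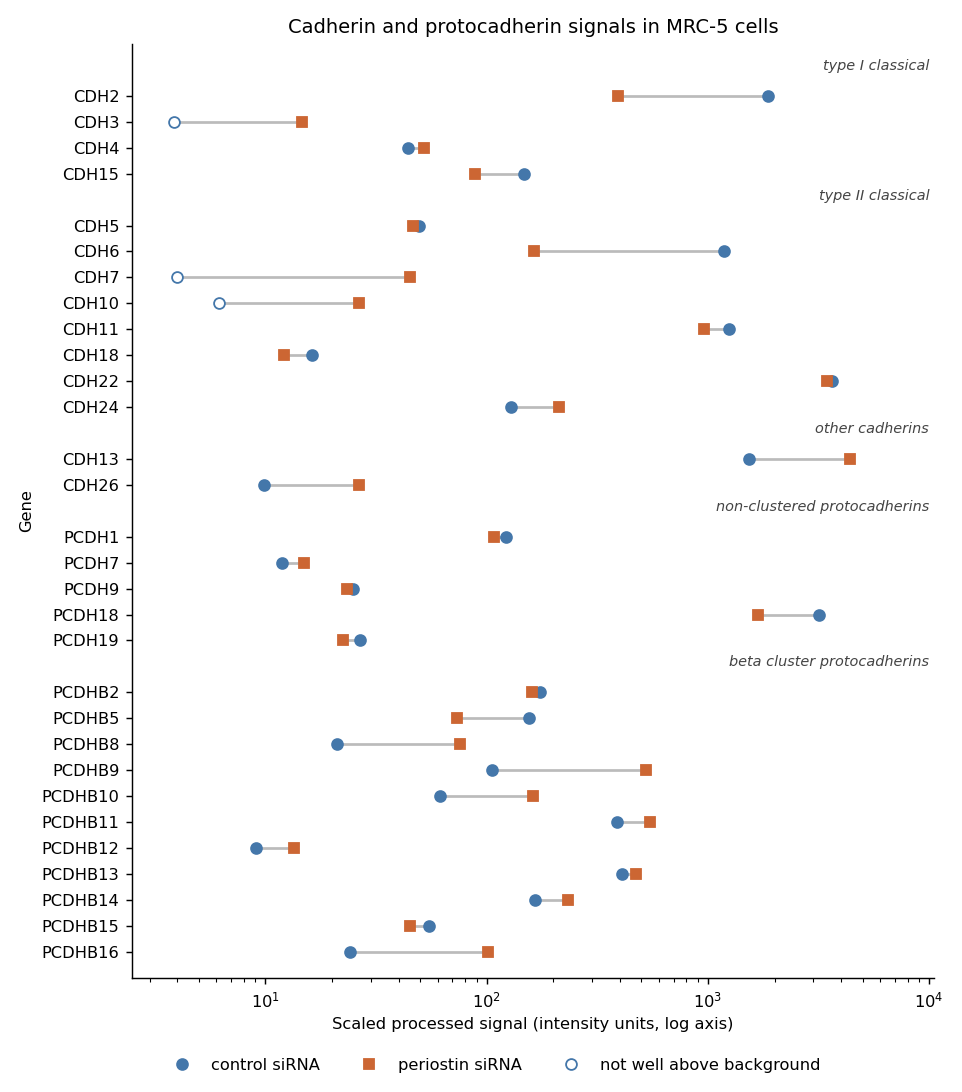
Scaled processed signal (intensity units, log axis) of the 30 cadherins and protocadherins well above background on at least 1 array, with control siRNA (circles) and periostin siRNA (squares), 1 array each; open symbols were not well above background. The squares of CDH2 and CDH6 lie well to the left of their circles, and those of PCDHB8, PCDHB9, PCDHB16, CDH7 and CDH10 well to the right.

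Among the 4 type I classical cadherins with a ratio, CDH2 alone was past 3-fold. Its brighter probe gave 1869 on the control siRNA array against 393 on the periostin siRNA array, a log2 ratio of -2.25 ± 0.20, which is 4.75-fold lower. A second CDH2 probe, at 589 and 148, gave -1.99. Both probes were thus lower on the periostin siRNA array and by a similar amount. CDH15 (M-cadherin), known from skeletal muscle, had signals of 148 and 88.9, a log2 ratio of -0.74 ± 0.21. The 3 skeletal muscle markers MYOD1, MYOG and DES had summed signals of 306 and 350.2, nearly all DES, at 274 and 313. MYOD1 was not well above background with control siRNA. The part of these markers in the value of CDH15 was not tested. CDH4 (R-cadherin) had signals of 44.0 and 51.9, a log2 ratio of 0.24 ± 0.22.

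CDH1 was printed in 10 spots, and its mean signals of 1.77 and 1.88 on the control and periostin siRNA arrays were not well above background on either array. CDH3 (P-cadherin), an epithelial cadherin too, was not well above background with control siRNA, at 3.87, and reached 14.6 with periostin siRNA. Set against 7.55, the lowest flagged signal of the control siRNA array, that is 1.94-fold higher, a log2 bound of 0.96. The log2 ratio was 0.18 under another background correction, called normexp. Lower CDH2 was therefore not accompanied by detectable CDH1. Of the list of epithelial markers, 6 of 6 were well above background on both arrays. Their signals ran from 33.8 to 3048 and from 49.997 to 4264. Their summed signal, 4084 and 6126, was mostly KRT18 (3048 and 4264) and KRT8 (751 and 1281). EPCAM, the epithelial adhesion molecule, had signals of 34.6 and 135, a log2 ratio of 1.97. That was the largest ratio of the 6, and the smallest was 0.02, for CLDN4. The part of these markers in the values of CDH2 and CDH3 was not tested.

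The type II cadherins held the lowest ratio of the family. CDH6 (K-cadherin), known from the developing kidney, gave 1181 on the control siRNA array against 164 on the periostin siRNA array, a log2 ratio of -2.85 ± 0.20 or 7.21-fold lower, from its only probe. CDH11, the other cadherin typical of fibroblasts, had signals of 1247 and 958, a log2 ratio of -0.38 ± 0.20. The cultures therefore differed much more in CDH2 and CDH6 than in CDH11. CDH7, a cadherin known from the nervous system, had signals of 3.97, not well above background, and 45.3. Against the lowest flagged signal of the control siRNA array, 7.55, that is 5.997-fold higher. CDH10, another neural cadherin, had signals of 6.18, not well above background, and 26.5, which is 3.51-fold higher against the same level. These bounds are not strict, since some spots of that array above 7.55 were not flagged, such as CDHR1 at 9.43. Against 9.43, CDH10 would not be past 3-fold. The bounds hold for the processed signal alone, and normexp gave log2 ratios of 0.30 for CDH7 and 0.32 for CDH10. Both are dim spots. Their median pixel lay 12 and 27 above the local background for CDH7, and 15 and 32.5 for CDH10, where 308 negative control spots had medians of 5 and 6.

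The remaining type II cadherins differed less. CDH24 had signals of 129 and 212, a log2 ratio of 0.72 ± 0.21. CDH22 had signals of 3632 and 3450, with a log2 ratio of -0.07 ± 0.20, within the spot error. CDH5 (VE-cadherin), the defining cadherin of endothelium, had signals of 49.5 and 46.5 and a log2 ratio of -0.09 ± 0.21. Of the endothelial markers, PECAM1 and TIE1 were not well above background on either array, and the summed signal of the 6 markers, 5576 and 5290 (lowest 1.52 and 1.56, highest 5457 and 5175), was nearly all TEK. CDH18 was dim, at 16.2 and 12.2, and its log2 ratio of -0.41 ± 0.33 turned to 0.04 under normexp. CDH8, CDH9, CDH12, CDH19 and CDH20 were not well above background on either array.

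CDH13 (T-cadherin) differs from the other cadherins in being held to the membrane by a lipid anchor without a cytoplasmic tail. Its brighter probe gave 1538 on the control siRNA array against 4407 on the periostin siRNA array, a log2 ratio of 1.52 ± 0.20 or 2.87-fold higher, just below the 3-fold mark. Its other probe, assigned to a different transcript, had signals of 225 and 427 and a ratio of 0.92. Both probes were higher with periostin siRNA, although their ratios differed by more than the spot error. CDH26 was dim, with signals of 9.89 and 26.5, a log2 ratio of 1.42 ± 0.35, and 0.28 under normexp. CDH16 and CDH17, known from kidney and intestine, and CDH23, which forms the tip links of sensory hair cells, were not well above background on either array.

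**Figure D2:**
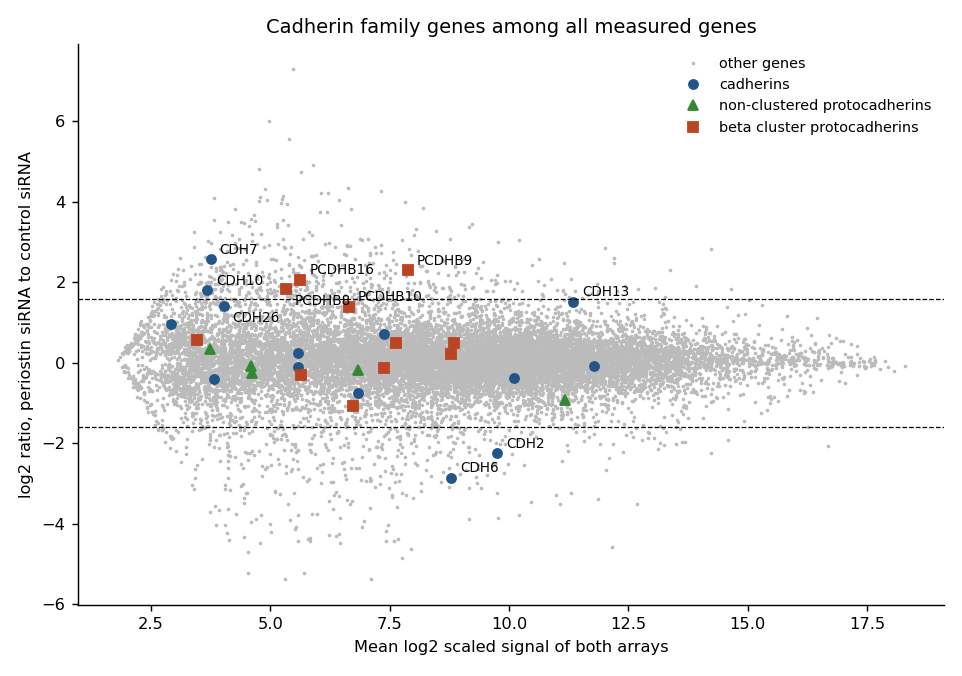
Log2 ratio (periostin siRNA over control siRNA) against the mean log2 scaled signal of both arrays, for the 16052 genes with a ratio (grey points), with cadherins, non-clustered protocadherins and beta cluster protocadherins marked; genes well above background on 1 array are drawn at their bound, and dashed lines mark 3-fold. CDH2, CDH6, CDH13 and PCDHB9 had the largest ratios among the brighter members, and CDH7, CDH10 and CDH26 lay at the dim end.

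None of the 5 protocadherins outside the clusters with a ratio was past 2-fold. Of all genes, 6.42% were lower and 7.97% higher by that much, and 5 genes are not set apart from them. PCDH18 came closest, with signals of 3181 and then 1680, a log2 ratio of -0.92 ± 0.20. With the arrays scaled to their median instead, its ratio was -1.05, past 2-fold. A second PCDH18 probe, at 656 and 329, gave -0.996. PCDH1, a protocadherin known from airway epithelium, had signals of 122 and 108 and a log2 ratio of -0.19 ± 0.21. PCDH19, known for its role in epilepsy, had 26.8 and 22.5, with a ratio of -0.25 ± 0.26. The values of both lay within the spot error. PCDH9, at 24.8 and 23.4, gave -0.08 ± 0.26, and PCDH7, at 11.8 and 15.0, gave 0.34 ± 0.33. PCDH8, PCDH12, PCDH15, PCDH17 and PCDH20 were not well above background on either array. PCDH12 is known from endothelium, and PCDH15 is the partner of CDH23 in the tip link.

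In the beta cluster, 11 of the 15 genes with a spot were well above background on both arrays. Their median log2 ratio was 0.50, with 8 above 0 and 3 below 0. Of all 14957 genes well above background on both arrays, 8124 were above 0 and 6833 below 0, with a median of 0.05. The ratios were not spread evenly along the cluster. PCDHB8, PCDHB16, PCDHB9 and PCDHB10, which follow each other in this order on the chromosome in the RefSeq annotation of GRCh38.p14, were the 4 highest, and no gene outside this stretch exceeded 0.57. This order was examined after the values had been seen. No coordinates of the spots are given, since the array was annotated on hg19.

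The promoters of the beta cluster genes are shown because they hold the sequence feature these neighbouring genes have in common. In the table of RefSeq promoters (GRCh38.p14, from 250 bases before to 50 bases after the annotated gene start), 35 of the 50 genes had a sequence, among them 14 of the 16 of the beta cluster. The 6 letters GGCGCT, which hold the core of an element known in clustered protocadherin promoters and bound by the insulator protein CTCF, were searched on both strands and stood in 13 of the 14, on the gene's own strand in each of these 13. PCDHB1 was the exception. The share was 21.7% of all 35116 promoters and 18.2% of the 33 promoters of the other cadherins and protocadherins. The longest run shared by the 13 was GGTGGCGCT, which contains these 6 letters. It was taken from these promoters, so its presence in all 13 was given by the choice and is no result. The run stood in 0.501% of all promoters, the 13 included, and began between 2 and 84 bases before the annotated start in these 13. It is in capitals below, with 12 bases on either side, on the plus strand, for the 10 genes that were also well above background on both arrays.
PCDHB2 (chr5:141094543-141094575): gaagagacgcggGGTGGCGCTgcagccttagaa
PCDHB5 (chr5:141135178-141135210): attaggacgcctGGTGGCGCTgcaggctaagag
PCDHB8 (chr5:141177776-141177808): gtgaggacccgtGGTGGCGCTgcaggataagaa
PCDHB16 (chr5:141182309-141182341): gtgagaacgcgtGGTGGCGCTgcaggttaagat
PCDHB9 (chr5:141187073-141187105): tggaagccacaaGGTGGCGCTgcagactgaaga
PCDHB10 (chr5:141192298-141192330): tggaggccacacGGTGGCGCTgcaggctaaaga
PCDHB12 (chr5:141208642-141208674): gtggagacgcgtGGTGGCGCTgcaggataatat
PCDHB13 (chr5:141213864-141213896): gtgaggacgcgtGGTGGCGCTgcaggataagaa
PCDHB14 (chr5:141223262-141223294): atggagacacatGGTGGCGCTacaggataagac
PCDHB15 (chr5:141245313-141245345): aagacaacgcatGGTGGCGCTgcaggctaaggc

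In 10 of the 13 the run was followed by GCAG. The run stood in every available beta cluster promoter of a gene with a ratio, so its presence could not be set against the ratios. PCDHB11 had a ratio but no promoter sequence here. A longer CTCF pattern, AGNNGGCGC, which overlaps GGCGCT by 5 letters, stood in 2 of the 14 promoters, those of PCDHB7 and PCDHB9, and in 10.4% of all promoters. TATAA stood in 4 of the 14 and in 20.4% of all promoters. The E-box CAGGTG, a letter pattern that Snail and ZEB proteins bind, stood in 1 of the 14, in 4 of the 33 promoters of the other members and in 20.6% of all promoters. A match is a description of letters and was not tested for binding.

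PCDHB9 had the largest ratio of the 27 members well above background on both arrays. The control siRNA array gave 106 and the periostin siRNA array 524, a log2 ratio of 2.30 ± 0.21 or 4.94-fold higher. PCDHB16 had signals of 24.0 and 101, a log2 ratio of 2.07 ± 0.23 or 4.21-fold higher. PCDHB8 had signals of 21.1 and 75.5, a log2 ratio of 1.84 ± 0.23 or 3.57-fold higher. PCDHB10, the last of this stretch, had signals of 61.3 and 162, a log2 ratio of 1.40 ± 0.21 or 2.64-fold higher, and 0.90 under normexp. All were thus higher on the periostin siRNA array by several times their spot error. The beta cluster genes are similar in sequence, the files hold no probe sequences, and whether each probe reads only its own gene was not tested.

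The genes on either side differed. On the side of PCDHB7, PCDHB7 itself was not well above background, at 1.73 and 1.77, and neither were PCDHB6 at 1.89 and 3.42 and PCDHB4 at 3.45 and 3.60. PCDHB5 had signals of 155 and 73.3 and was lower, with a log2 ratio of -1.08 ± 0.21, and -0.69 under normexp. PCDHB2, at 175 and 160.2 with its brighter probe, gave -0.12 ± 0.21, and its second probe, at 124 and 105, gave -0.24. On the side of PCDHB11, that gene had signals of 388 and 547 and a log2 ratio of 0.49 ± 0.20. PCDHB12, at 9.03 and 13.4, gave 0.57 ± 0.36, and 0.05 under normexp. PCDHB13, at 408 and 472, gave 0.21 ± 0.20, and PCDHB14, at 166 and 234, gave 0.50 ± 0.20. PCDHB15, the last gene of the cluster, had 55.1 and 45.03 and a ratio of -0.29 ± 0.22. PCDHB1, printed in 10 spots, was not well above background, at 1.77 and 2.73. From PCDHB8 onwards, only PCDHB15 among the measured genes had a ratio below 0.

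**Figure D3:**
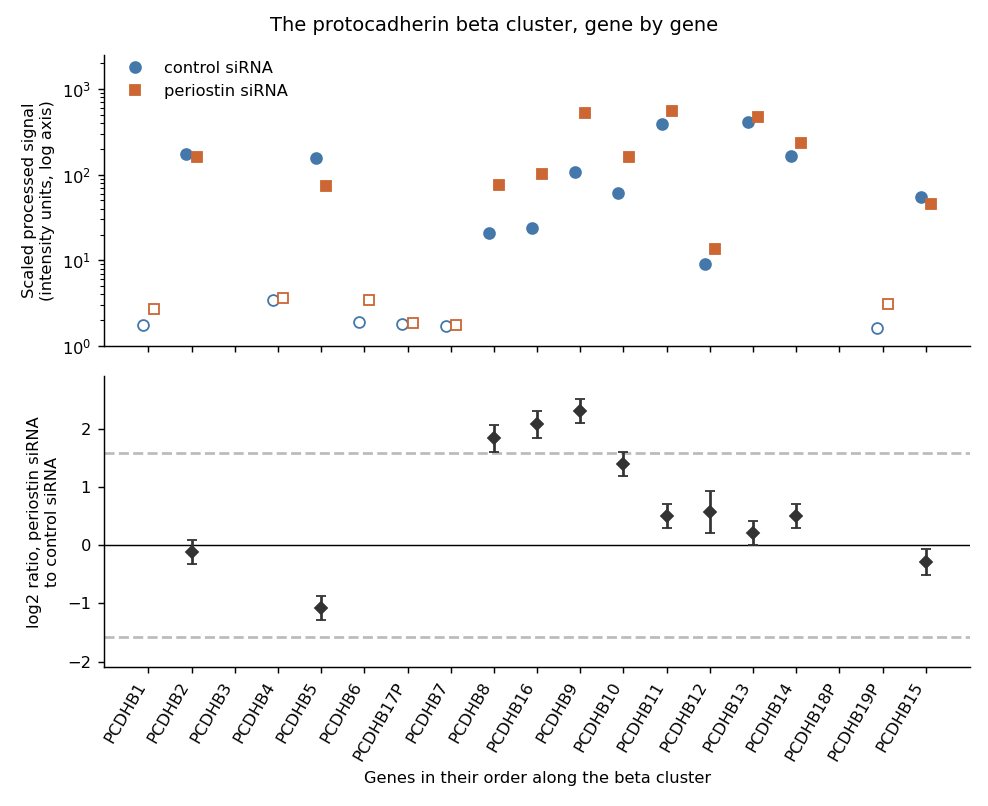
Genes and pseudogenes of the protocadherin beta cluster in their chromosomal order. The upper panel gives the scaled processed signal (intensity units, log axis) with control siRNA (circles) and periostin siRNA (squares), open where not well above background, and the lower panel the log2 ratio with its propagated spot error, dashed lines marking 3-fold. PCDHB8, PCDHB16, PCDHB9 and PCDHB10, from 1.40 to 2.30, stand above all others, and PCDHB5 is the lowest at -1.08.

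The alpha and gamma clusters, which lie on either side of the beta cluster, had no gene higher by more than 3-fold among 7 and 13 genes with a ratio, where 3.37% of all genes were, and so few genes do not set these clusters apart from the array as a whole. PCDHAC2 had a signal of 33.5 on the control siRNA array and a dim 1.66 on the other, a bound of 4.31-fold lower. The median log2 ratio of those well above background on both arrays was 0.55 over 4 alpha genes and 0.22 over 12 gamma genes. These 2 clusters are part of a list of 64 related genes of the cadherin superfamily, of which 58 had a spot and 35 a ratio. In this list PCDHAC2 was the 1 gene lower and CDHR4 the 1 gene higher by more than 3-fold, 2.86% each, close to the 2.75% and 3.37% of all genes. CDHR4 had a bound of 5.35-fold higher, with 40.4 against a dim 6.66. The 3 genes named for their probe signal, which does not rank the genes, were CELSR1, at 36180 and 37278, FAT1, at 4764 and 5938, and CLSTN3, at 4045 and 5643, with log2 ratios of 0.04, 0.32 and 0.48.

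Cadherins act with catenins and other junction proteins, and none of the 13 such genes with a ratio differed by more than 2-fold. Of all genes, 6.42% were lower and 7.97% higher by that much, and so short a list is not set apart from them. Of 16 genes on that list, these 13 were well above background on both arrays, with a median log2 ratio of 0.29 and values from -0.85 to 0.82. VCL (vinculin), which binds actin at junctions, had signals of 7988 and 11716 and a log2 ratio of 0.55. ACTN1 (alpha-actinin), at 7529 and 9192, gave 0.29. CTNNA1 (alpha-catenin), at 5650 and 5849, gave 0.05. The catenins that bind the cadherin tail, CTNNB1 (beta-catenin) at 4786 and 4644, JUP (plakoglobin) at 3791 and 4531 and CTNND1 (p120 catenin) at 781 and 1256, gave -0.04, 0.26 and 0.68. The lower signal of CDH2 and CDH6 was thus not seen in CTNNB1, JUP and CTNND1.

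Among 8 transcription factors known for switching cells between E-cadherin and N-cadherin, none was past 3-fold, and the median log2 ratio was 0.06. SNAI1 (Snail), at 981 and 417, was the only factor of the 8 past 2-fold, with a log2 ratio of -1.23, and 1 of 8 is no more than the shares of all genes past 2-fold (6.42% lower and 7.97% higher) give. The 3 genes named for their probe signal were ZEB1, at 6550 and 3921, TCF3, at 3551 and 3986, and TCF4, at 2835 and 3271, with log2 ratios of -0.74, 0.17 and 0.21. Among 14 genes for factors that act on the clustered protocadherins, which include CTCF, cohesin subunits and DNA methyltransferases, all were well above background on both arrays and none was past 2-fold, a list too short to be set apart from the 6.42% and 7.97% of all genes. Their median log2 ratio was -0.27. CTCF had signals of 230.4 and 171, a ratio of -0.43. Those named for their probe signal were RAD21, a cohesin subunit, at 3348 and 3413, TRIM28, at 3733 and 2779, and SETDB1, at 1435 and 1832, with log2 ratios of 0.03, -0.43 and 0.35.

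**Figure D4:**
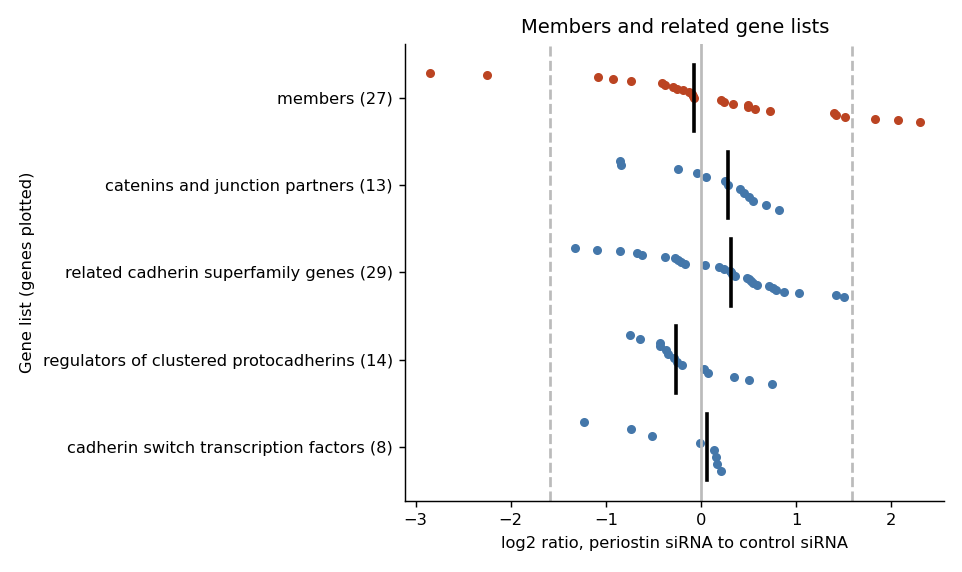
Log2 ratio (periostin siRNA over control siRNA) for each gene well above background on both arrays, by list, with the number of genes plotted in brackets; the black bar is the median, the dashed lines mark 3-fold and vertical position within a list only separates the points. The 27 members spread from -2.85 to 2.30, while the 13 junction partners stay between -0.85 and 0.82.

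The sizes of the larger differences depended on the background correction for dim spots. The normexp correction with an offset of 50, which pulls dim ratios towards 0, gave -2.01 for CDH2, -2.43 for CDH6 and 1.82 for PCDHB9, which stayed past 3-fold. It gave 0.90 for PCDHB16, 0.82 for PCDHB8, 0.30 for CDH7 and 0.32 for CDH10, which did not. A ratio taken from the median pixel of each spot, less its local background and the level of the negative control spots, gave 1.83 for PCDHB16, 1.80 for PCDHB8 and 2.29 for PCDHB9. Among the 27 genes this measure covered, the same 3 beta cluster genes were higher and the same 2 cadherins lower by more than 3-fold. Of 27 genes, 26 kept their sign, CDH18 being the exception. The measure was not taken for CDH3, CDH7 and CDH10, which were well above background with periostin siRNA alone, so it gives no check of their values. Less the local background alone, the median pixels were 12 and 27 for CDH7 and 15 and 32.5 for CDH10, less than 3-fold apart. Whether CDH7 and CDH10 stay past 3-fold by the full measure was not tested.

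**Figure D5:**
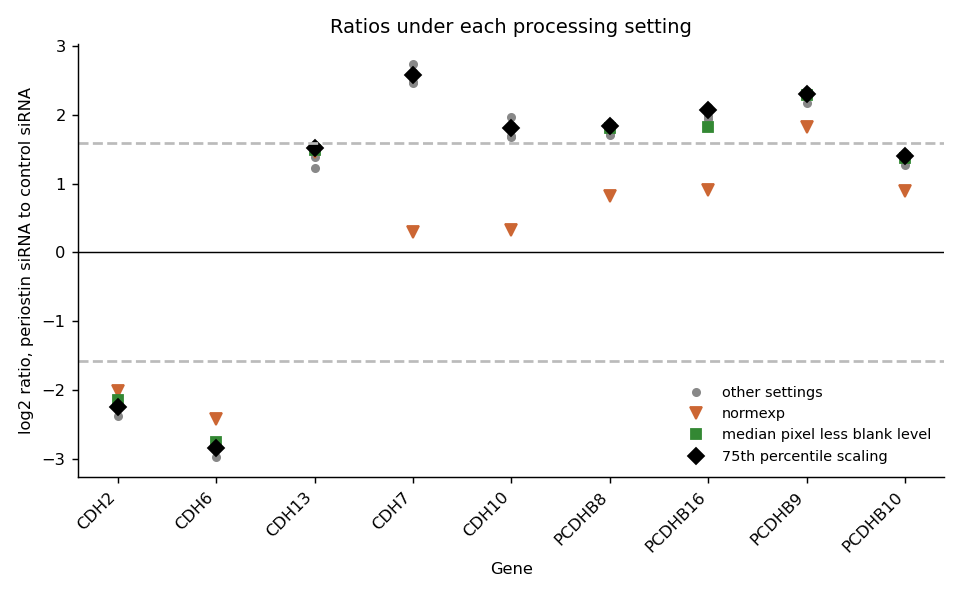
Log2 ratio (periostin siRNA over control siRNA) of 9 members under the 75th percentile scaling (black diamonds), the normexp correction (triangles), the median pixel less the negative control level (green squares, drawn where both arrays were well above background) and the other settings (grey circles); dashed lines mark 3-fold. CDH2, CDH6 and PCDHB9 stay outside the dashed lines throughout, while PCDHB8 and PCDHB16 move inside them with normexp alone. CDH7 and CDH10 also move inside with normexp, and the median-pixel measure was not taken for them.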

How the data were processed

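The authors deposited 1 scanner file per array, made with Agilent Feature Extraction (11.5.1.1 per the file headers, 12.0.3.1 per the labels), whose intensity values were background-subtracted and detrended by that program and not scaled between arrays. A second table, deposited by the authors as normalized intensity,  for probes printed once equalled the scanner values times a constant per array. Here, log2 of the processed signal was shifted so that both arrays shared their 75th percentile over spots other than controls (372 and 383 before the shift). Spots of a probe were averaged, and the brightest probe stood for a gene. Where only 1 array was well above background, the ratio is a bound against whichever was higher, the dim signal or the lowest flagged one, 7.55 with control siRNA and 7.77 with periostin siRNA. Some spots above the lowest flagged signal were not flagged, so such a bound is not strict. It holds for the processed signal and not for another background correction. Genes were named through RefSeq accessions (GRCh38.p14; 65.1% of spots). Python 3.11.15, numpy 2.4.6, pandas 2.3.3 and limma 3.58.1 in R 4.3.3 were used, and the steps were tested on simulated data. Every member well above background on at least 1 array is named with its signals; of the related lists, genes past 3-fold and the 3 with the brightest probes are named, others being chosen after their values were seen. The members and lists were chosen with earlier results of these data known. Over 667 probes printed 10 times and well above background throughout, the log2 ratio had a pooled SD between spots of 0.12. The number of arrays, 1 per group, limits the precision. Alternatives were other scalings, quantile normalization, normexp, the deposited table, the mean over probes, spot and signal filters, and thresholds of 2-fold and 4-fold. A further list of cell type markers is not reported here.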

Additional observations from a re-analysis of the deposited data

How the results depend on the processing

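No paired analysis was possible because each group has 1 array, and leaving out an array would leave no comparison. Over 8 settings of scaling, background and probes, 29 of 30 members kept their sign, CDH18 turning under normexp. Normexp gave 1 member higher by more than 3-fold, 190 genes lower and 143 higher (42.9% of those past 3-fold higher, against 55.1%) and -2.99 for POSTN; it adds the offset to every spot. Under median scaling the median of the members was -0.20, and that of all genes moved by -0.13. At 2-fold, 8 members were higher, and 1031 genes lower and 1279 higher; at 4-fold, 3, 274 and 278. With genes well above background on both arrays alone, 3 of 27 members were higher and 2 lower, beside 404 and 358 of all 14957 such genes. Without a filter on the signal, 3 members and 686 genes were lower, and 6 members and 878 genes higher. Between 2 and 3 members were lower in every setting of threshold, filter, scaling and background. The median-pixel measure was added after seeing the data. Dim spots limit CDH3, CDH7, CDH10, CDH18, CDH26, PCDHB8, PCDHB12 and PCDHB16. PCDHB5 and PCDHB10, past 2-fold in the main setting, were not past it under normexp.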

Other observations

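The order of other members along their chromosomes was read from the RefSeq annotation, without distances, so that members next to each other in it may lie far apart. On chromosome 16, CDH11 with a log2 ratio of -0.38 and CDH5 with -0.09 lie on the same chromosome as CDH13 with 1.52 and CDH15 with -0.74. CDH3 and CDH1 follow each other there, CDH3 with a bound of 1.94-fold higher and CDH1 not well above background. On chromosome 5, CDH6 with -2.85 follows CDH10, with a bound of 3.51-fold higher. CDH9, not well above background, is between them in the order of members. On chromosome 18, CDH2 with -2.25 is followed by CDH20, CDH7 and CDH19, of which CDH7 alone was well above background, with periostin siRNA. These orders were examined after the values had been seen.

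Immune cell markers were well above background for 3 of 4 genes, PTPRC, CD14 and CD68, and their summed signal, LAPTM5 included, was 1834 for control siRNA and 3033 for periostin siRNA, with single genes from 1.96 to 1528 and from 8.34 to 2451. Their part in the cadherin values was not tested.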
